A study of Bos taurus and Bos indicus x Bos taurus with 938 samples.

Results

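The regions described here are 15429 rarely open chromatin regions of bovine embryos that lie in 2 contiguous stretches of a region list, called block 4 (V41001 to V49900) and block 13 (V125101 to V132000). A member is a region of either stretch that was called open in under 12% of the columns of the table, that is in 98 columns or fewer. The rule kept 8689 of the 8900 regions of block 4 and 6740 of the 6900 regions of block 13, which together are 5.09% of all regions of the table. The part of the numbering that falls into 29 blocks, V1 to V274100, holds 264501 regions as rarely open. The members were thus chosen by how often they were open over all columns, and that low frequency is a description and not a result.

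Each column is a single-cell ATAC-seq library of 1 blastomere, a cell of a cleavage-stage embryo. Embryos were made by in vitro fertilisation (IVF, organism label Bos indicus x Bos taurus) or by somatic cell nuclear transfer (SCNT, organism label Bos taurus), in which a somatic nucleus is placed in an oocyte without its own nucleus. Oocytes of both types came from abattoir ovaries and were matured in culture, and IVF used thawed frozen semen, per the labels' protocols. No source used here gives the donor cells or the age of the embryos. The compared groups are embryos labelled as 2-cell (65 IVF and 30 SCNT embryos after filtering), 4-cell (20 and 22) and 8-cell (14 and 21). The table holds 398 IVF and 421 SCNT blastomeres. Type cannot be told apart from organism label or from title prefix, since prefixes 15243 and 15244 occur only with SCNT, and prefixes 15286 and 15287 only with IVF. The link from columns to titles was inferred from their numbering, so every type, embryo and sister relation below rests on it. Blastomeres are named as in the titles, where the number marks the embryo and the letter the blastomere, and an embryo is named by the same word without the letter.

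In ATAC-seq, Tn5 transposase cuts and tags accessible DNA, and in a single diploid cell each place has only a few copies that can be cut. A single-cell profile is therefore sparse, and most rarely open regions are seen in few cells. Early bovine embryos are known for errors of chromosome segregation at the first cleavages, and their main wave of genome activation falls near the 8-cell stage. In the table a region is a running number without a position, a gene or a sequence, so no marker of a cell type could be checked and no sequence is shown.

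Every value is 0 or 1, and the depth in reads is unknown. The number of open calls over V1 to V274100 was used in its place. It reached 114049 per blastomere, with a median of 8003 in IVF and 4771 in SCNT. Blastomeres with at least 2000 such calls were kept, which left 343 IVF and 338 SCNT blastomeres. The tests of single regions used another filter, given there. Nothing in the labels says whether embryos came from separate batches of oocytes, so p-values measure the spread between these embryos only.

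Block 13 had the fewest calls per region of the 29 blocks and block 4 did not. Counting all regions of a block, the mean was 24.2 calls per region in block 13, the lowest of 29, and 26 in block 4, the sixth lowest, against 25.0 to 36.6 in the other 27. Both blocks stood lowest in the percent of regions open in more than 98 columns, at 2.37% in block 4 and 2.32% in block 13 against 2.38% to 7.42%. Among members alone the mean was 22.8 calls in block 4, 21.3 in block 13 and 23.3 in the regions of the other blocks with 98 calls or fewer, with medians of 18, 17 and 18. The members together held 2.59% and 1.87% of the open calls of V1 to V274100. By mean calls per region block 13 was thus a block with few calls, whereas block 4 was one only by its scarcity of commonly open regions.

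**Figure D1:**
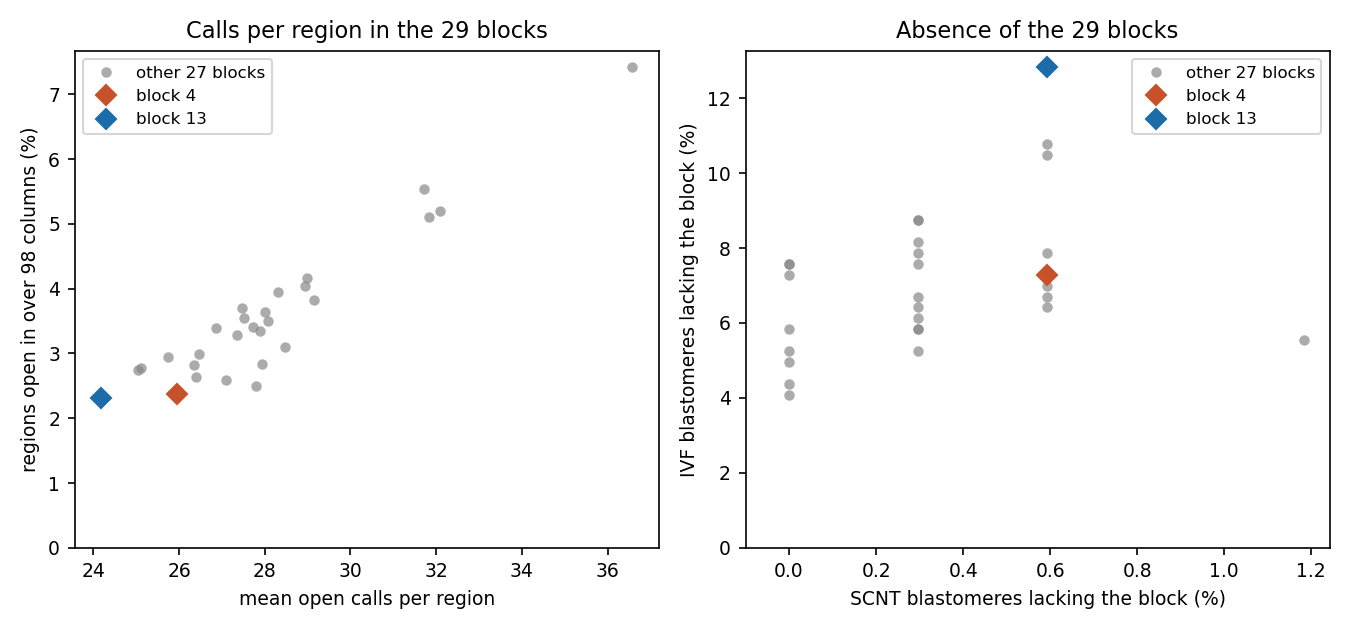
The left panel plots, for each of the 29 blocks, the mean open calls per region (x axis) against the percent of its regions open in more than 98 columns (y axis). The right panel plots the percent of SCNT (x axis) and IVF (y axis) blastomeres that lacked the block, meaning under 0.1 of the expected calls; block 13 is highest among IVF blastomeres at 12.8%, while block 4, at 7.29%, lies among the others.

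At the threshold, 9 members of block 4 and 2 of block 13 had 98 calls, and 4 and 6 regions just outside had 99. Region V43079, for example, was open in 66 IVF and 32 SCNT columns, and V131065 in 52 and 46. The most often open regions of the blocks were no members. V41023 of block 4 was open in 338 columns and V128401 of block 13 in 383. At the other end 4996 members of block 4 (57.5%) and 4162 of block 13 (61.8%) had at most 20 calls. Members that were open in 1 type only were few: 78 of block 4 and 73 of block 13 had no SCNT call, and 4 and 6 had no IVF call. Those without an SCNT call were 0.898% and 1.08% of the members, against 1.10% of the equally rare regions of the other blocks, and those without an IVF call 0.0460% and 0.0890%, against 0.0996%.

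Calls of each block were set against the blastomere's total in 2 ways. The share is the percent of the blastomere's calls over V1 to V274100 that fell in the members. Relative coverage is the number of member calls divided by the number expected from the blastomere's total and the regions' frequencies, so that 1 means a block as open as in the average blastomere of the same total. It counts calls, not reads. Because the total runs over all blocks, calls lacking in some blocks raise the relative coverage of the others. A block was called absent where relative coverage was under 0.1.

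The shares of both blocks overlapped between the groups in every comparison, and none of the differences passed. In 2-cell embryos, block 4 held 3.20% ± 2.06 of the calls in SCNT and 2.46% ± 1.04 in IVF (SD over embryos, n = 30 and 65), with medians of 2.82% and 2.49%. The SCNT embryos ran from 0.221% to 11.5% and the IVF embryos from 0.0780% to 5.34%, so the groups overlapped over nearly the whole range. The difference of 0.73 percentage points had a permutation p of 0.0206 and did not pass after Benjamini-Hochberg adjustment over 10 tests of the share (adjusted p = 0.206, two-sided). Without the SCNT embryo of blastomere_85A, the highest at 11.5%, the difference was 0.447 (permutation p = 0.0852, adjusted p = 0.367), and in embryos with every blastomere kept it was 0.299. Block 13 held 1.90% ± 0.802 in SCNT and 2.00% ± 1.16 in IVF at that stage (permutation test, adjusted p = 0.826).

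In 4-cell embryos the shares of block 4 were 2.59% ± 0.518 in SCNT and 2.61% ± 0.741 in IVF (SD, n = 22 and 20, permutation test, adjusted p = 0.909), and those of block 13 were 1.66% ± 0.407 and 1.79% ± 0.535 (adjusted p = 0.734). In 8-cell embryos block 4 held 2.80% ± 0.482 in SCNT and 2.55% ± 0.707 in IVF (SD, n = 21 and 14, permutation test, adjusted p = 0.563). Block 13 held 1.81% ± 0.307 and 1.48% ± 0.711 (adjusted p = 0.35). None of the 10 tests of the share passed, the 8-cell against 2-cell tests within each type included (adjusted p from 0.367 to 0.850). Within prefix 15287 the share of block 13 was 0.298 percentage points higher at 8 than at 2 cells (n = 14 and 3, exact permutation p = 0.535), the opposite sign of the pooled -0.519. These p-values do not show that the shares were equal.

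Single blastomeres differed far more than the group means. In IVF 2-cell embryos the relative coverage of block 4 ran from 0.0298 to 3.39 with a median of 0.882, and that of block 13 from 0.0237 to 4.98 with a median of 0.901. In SCNT 8-cell blastomeres the ranges were 0.391 to 2.39 for block 4 and 0.299 to 2.27 for block 13, with medians of 1.09 and 0.929. Over all kept blastomeres, 41.1% of 343 IVF and 51.2% of 338 SCNT blastomeres had between 0.8 and 1.2 of the expected calls of block 4. For block 13 these were 38.2% and 53%.

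**Figure D2:**
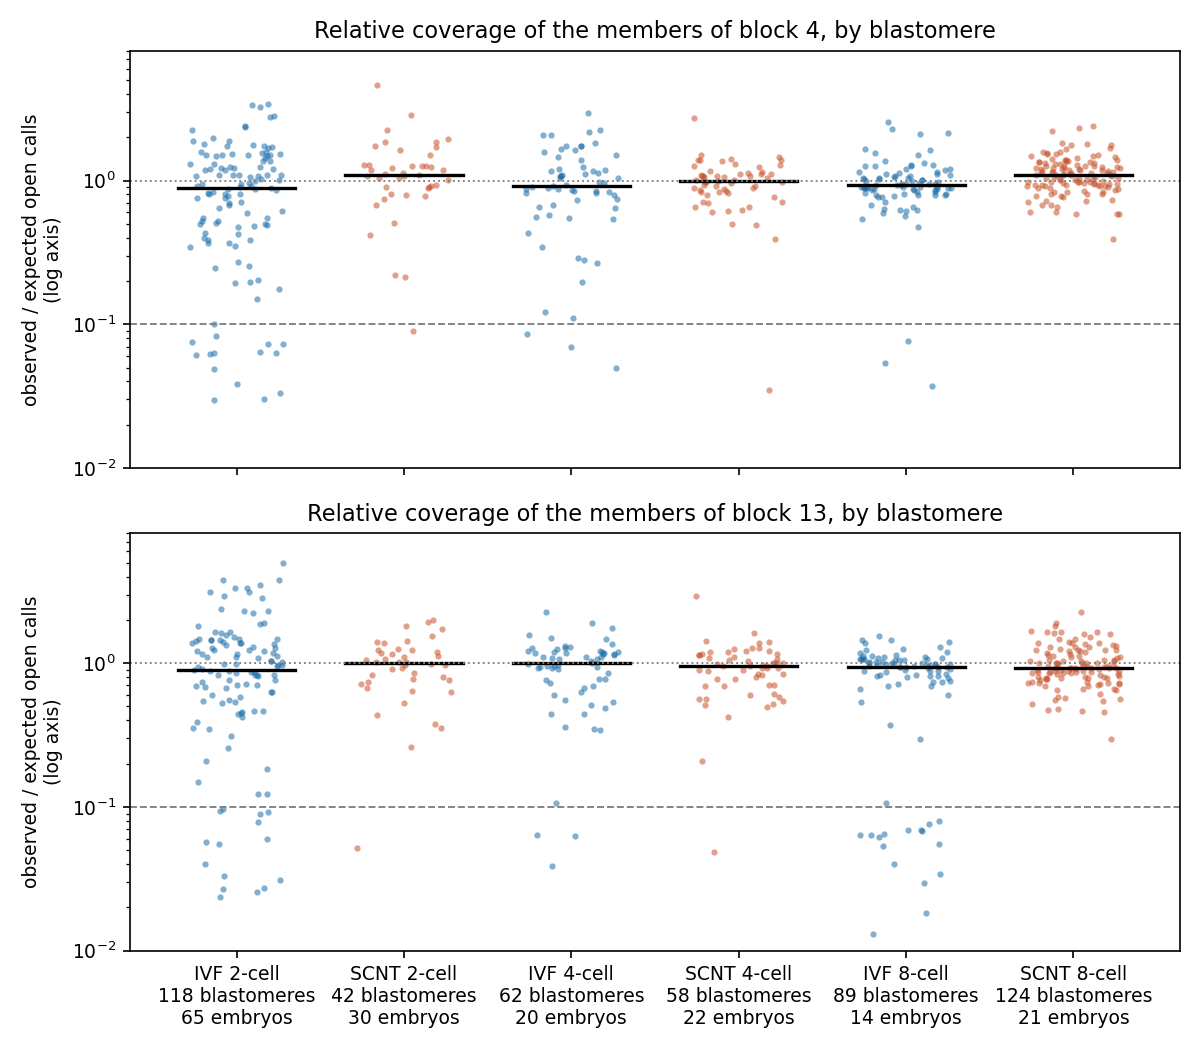
Each point is a blastomere, placed by its observed over expected open calls among the members of block 4 (upper panel) or block 13 (lower panel) on a log axis; black bars are medians, the dotted line is 1 and the dashed line is 0.1, below which a block was called absent. Points below the dashed line are mostly IVF: 11.9% (block 4) and 12.7% (block 13) of those of IVF 2-cell embryos, and 16 of 89 for block 13 in IVF 8-cell embryos against none in SCNT.

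The highest values came from single blastomeres of 2- and 4-cell embryos. For block 4 they were 4.66 in SCNT 2-cell blastomere_85A, 3.39 in IVF blastomere_594B, 3.35 in IVF blastomere_578A, 3.27 in IVF blastomere_536B and 2.94 in IVF blastomere_550C. For block 13 they were 4.98 in IVF blastomere_559A, 3.82 in blastomere_595B, 3.78 in blastomere_609A, 3.53 in blastomere_505B and 3.35 in blastomere_594B. All 5 of the block 13 values were from IVF 2-cell embryos, and blastomere_594B stood among the highest for both blocks.

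The lowest values also came mostly from IVF. For block 4 they were 0.0298 in 2-cell blastomere_536A (24 calls where 805 were expected), 0.0303 in 2-cell blastomere_509B, 0.0330 in 2-cell blastomere_571B, 0.0351 in SCNT 4-cell blastomere_89C and 0.0375 in IVF 8-cell blastomere_619A. For block 13 they were 0.0130 and 0.0182 in 8-cell blastomere_621E and blastomere_621C, 0.0233 in 16-cell blastomere_617D, 0.0237 in 2-cell blastomere_557B and 0.0258 in 2-cell blastomere_536A. Of these, blastomere_621E had 3 calls of block 13. The sister of blastomere_536A, blastomere_536B, is among the highest for block 4.

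Absence of a block was concentrated in IVF blastomeres by count. Block 4 was absent from 25 of 343 IVF blastomeres (7.29%, exact 95% interval 4.77 to 10.6) and from 2 of 338 SCNT blastomeres (0.592%, 0.0717 to 2.12). Block 13 was absent from 44 IVF (12.8%, 9.48 to 16.8) and 2 SCNT blastomeres (0.592%, 0.0717 to 2.12). The intervals treat blastomeres as independent, which those of 1 embryo are not, and cover counting error only. Among all 29 blocks, block 13 had the highest percent absent in IVF, where the other 27 ran from 4.08% to 10.8%, and block 4 ranked twelfth. In IVF 2-cell embryos alone block 13 held rank 5, at 12.7% where the highest block was at 14.4%. Of its 44 absences in IVF, 22 were in 4 embryos of 6 or 8 cells, without which 6.92% of IVF blastomeres lacked it.

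Over embryos, no comparison of absence passed. The mean percent of an embryo's blastomeres lacking block 13 was 0% in SCNT and 18.2% ± 36.6 in IVF 8-cell embryos (SD, n = 21 and 14, permutation p = 0.0560, adjusted p = 0.440 over 10 tests). In 2-cell embryos this was 3.33% ± 18.3 and 13.8% ± 28.7 (SD, n = 30 and 65, permutation p = 0.0880, adjusted p = 0.440). For block 4 the 2-cell values were 3.33% ± 18.3 and 11.5% ± 24.6 (adjusted p = 0.509). No SCNT 8-cell blastomere lacked either block, and a count of 0 there allows, at 3 counts of the total, a share of up to 2.42% of these blastomeres (exact 95% upper limit 2.93%). Both limits treat blastomeres as independent.

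Over IVF blastomeres of all cell numbers together, the median total was similar with and without the blocks. This was not tested, and no comparison was made within a cell number. In SCNT the 2 blastomeres without block 4 had a median of 3993.5 and the 2 without block 13 one of 9663.5, against 6510 in those with both. The IVF blastomeres without block 4 had a median total of 9119 calls and those without block 13 one of 9808.5, against 9711.5 in IVF blastomeres with both blocks. Across the kept blastomeres of both types the relative coverage had a Spearman correlation of -0.02 (block 4) and 0.03 (block 13) with the total, as a description. Where the blocks were absent, calls did not end entirely. The 27 blastomeres without block 4 had 441 member calls (5.61% of those expected) over 340 members, and the 46 without block 13 had 590 (5.07%) over 429 members. The member with most of them had 8 calls in each case, V49877 and V125710.

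Both blocks were absent together from 8 IVF blastomeres and 1 SCNT blastomere, while 17 and 36 IVF blastomeres lacked only block 4 or only block 13. Relative coverage of the 2 blocks had a Spearman correlation of 0.14 over IVF and 0.15 over SCNT blastomeres. Absence of these blocks usually came with absence of others. IVF blastomeres without block 4 lacked a median of 9 of the other 28 blocks (0 to 19), and 2 of the 25 lacked no other. Those without block 13 lacked a median of 3.5 others (0 to 19), and 7 of the 44 lacked no other. IVF blastomeres that had block 13 lacked a median of 0 blocks, though 40.5% of these 299 lacked at least 1.

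Members of a block tended to open together, which the way the blocks were drawn favours. In IVF the log2 relative coverage of the leading portion of block 4 (its members before the midpoint) had a Pearson correlation of 0.88 with that of the trailing portion over 343 blastomeres, and the value was 0.91 for block 13. In SCNT it was 0.61 and 0.62 over 338 blastomeres. Between the leading portions of block 4 and block 13 it was 0.16 in IVF and 0.22 in SCNT. The blocks were themselves drawn from these data, with boundaries where the calls of neighbouring regions stopped correlating over blastomeres. A higher correlation within a block than between blocks was therefore in part fixed in advance. The points also share libraries and the same total, and the correlations are given as a description. Where the members of 1 block were split into every second member and the rest, IVF blastomeres gave 0.97 for block 4 and 0.96 for block 13, and SCNT blastomeres 0.91 and 0.86.

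Neighbouring members were open in the same blastomere more often than the model predicts, even where the whole block was at its average. In 314 blastomeres with 0.8 to 1.2 of the expected calls, 2 adjacent members of block 4 were both open 13032 times, 1.55 times the expected number. The ratio fell to 1.17 at 5 regions apart and 0.984 at 100 apart. In block 13 it was 1.74 for adjacent members, 1.28 at 5 apart and 1.08 at 100 apart. The other 27 blocks ran from 1.53 to 1.92 for adjacent regions with a median of 1.74, so block 4 lay near the low end and block 13 at the middle.

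Sister blastomeres of IVF 2-cell embryos often held unequal amounts of a block. For block 4, 30 of 53 IVF pairs and 2 of 12 SCNT pairs differed by more than 2-fold, with median ratios between sisters of 2.41 and 1.43. For block 13 these were 29 of 53 and 3 of 12 pairs, with medians of 2.07 and 1.38. The sisters' log2 relative coverages had a Pearson correlation of -0.37 for block 4 and -0.18 for block 13 in IVF, and 0.33 and 0.06 in SCNT, as descriptions over pairs.

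Where 1 IVF sister lacked block 4, which happened in 11 pairs, the other always had at least its expected calls, with a median of 1.98 (1.09 to 3.39). Where 1 lacked block 13, in 10 pairs, the other had a median of 1.54 (0.150 to 3.53) and at least the expected calls in 7. Embryo blastomere_505 showed this for both blocks in opposite sisters. Its blastomere A had 2.23 of the expected block 4 calls and 0.0400 of those of block 13, and its blastomere B had 0.0638 and 3.53. The fewest and most blocks lacking in a sister of this embryo were 11 and 13, and 24 blocks were lacking in at least 1 sister. By the definition of relative coverage, lacking blocks raise the values of the blocks that are kept. How much of the high values in this and the other pairs came from that was not tested. The mean of the 2 sisters had a median over IVF pairs of 0.978 for block 4 and 0.997 for block 13, but single pairs ran from 0.0559 to 2.09 (SD 0.405) and from 0.0734 to 2.94 (SD 0.611). In 2 IVF embryos both sisters lacked a block, block 4 in embryo blastomere_559 (0.0734 and 0.0385) and block 13 in embryo blastomere_566 (0.0899 and 0.0568). No sister of an SCNT pair lacked either block.

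**Figure D3:**
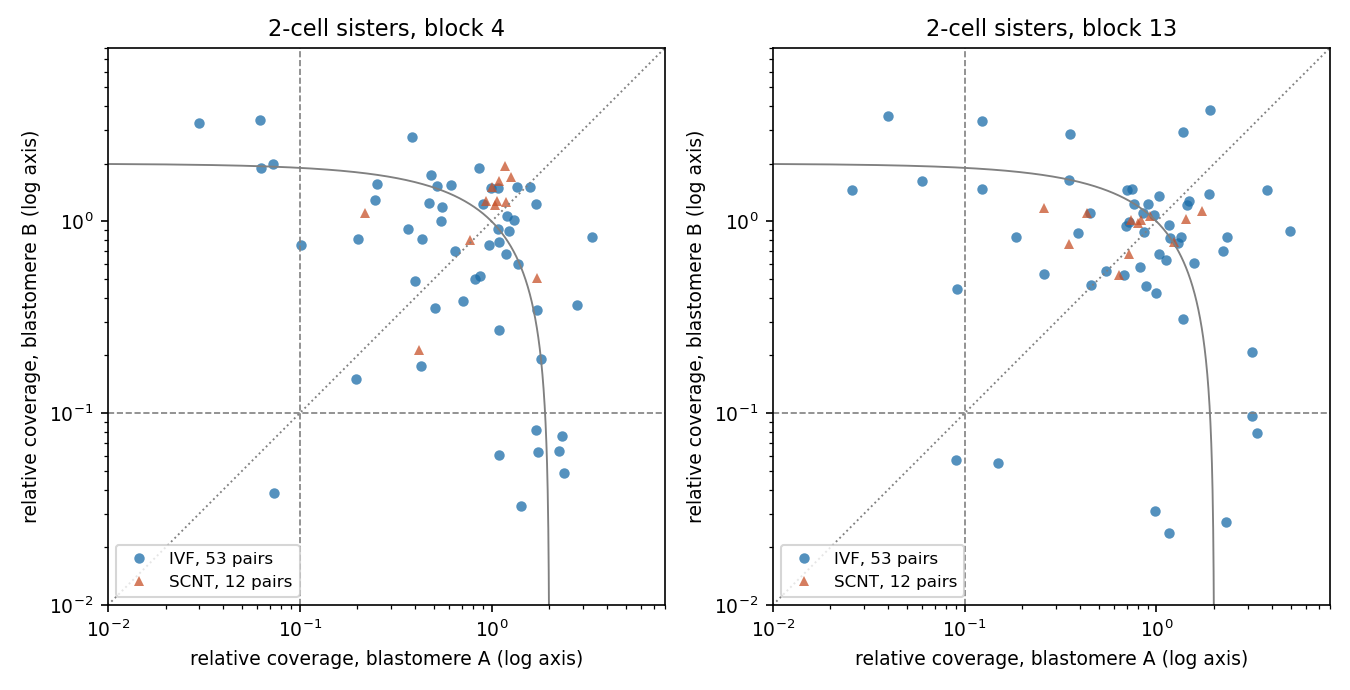
Relative coverage of blastomere A (x axis) and blastomere B (y axis) of each 2-cell embryo with both sisters kept, on log axes, for block 4 (left) and block 13 (right). The dotted line marks equal sisters, the curve marks pairs whose mean is 1, and dashed lines mark 0.1; in 11 (block 4) and 10 (block 13) of 53 IVF pairs exactly 1 sister lies below 0.1, and in none of the 12 SCNT pairs.

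The spread within an embryo was taken as the mean absolute difference in log2 relative coverage over all pairs of its blastomeres, in embryos with at least 2 kept blastomeres and with 0.5 added to observed and expected calls. For block 4 it was 0.696 ± 0.686 in SCNT and 1.98 ± 1.83 in IVF 2-cell embryos (SD, n = 12 and 53, permutation p = 0.0189, adjusted p = 0.0630 over 10 tests). For block 13 it was 0.659 ± 0.593 and 1.82 ± 1.86 (permutation p = 0.0335, adjusted p = 0.0670). Within IVF it was lower at 8 cells by 1.43 for block 4, at 0.547 ± 0.769 against 1.98 ± 1.83 (SD, n = 14 and 53, permutation p = 0.00564, adjusted p = 0.0564). For block 13 the difference was -1.28 (adjusted p = 0.0630). Within prefix 15287, which holds all 14 8-cell but only 3 of the 2-cell embryos, these differences were -0.0901 and -0.377 (exact permutation p = 0.847 and 0.297), and stage and prefix cannot be told apart in the pooled values. In SCNT embryos the spread of 8-cell minus that of 2-cell embryos was -0.333 for block 4 (permutation test, adjusted p = 0.0670), with -0.225 in prefix 15243 and -0.780 in prefix 15244. In prefix 15244 the only 2-cell embryos with both sisters kept were blastomere_2 (0.930 and 1.27) and blastomere_5 (1.73 and 0.504). None of the 10 tests of the spread passed. The change from 2 to 8 cells was compared between the types in 6 further permutation tests, of which none passed, the smallest p being 0.0465 for the spread of block 13 (adjusted p = 0.174).

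In IVF embryos of more cells, a block could be missing from most or all blastomeres. In 8-cell embryo blastomere_612, block 13 was absent from all 6 kept blastomeres (0.0298 to 0.0695), while their block 4 values ran from 0.631 to 1.14. In 8-cell embryo blastomere_621 it was absent from 6 of 8, the other two having 0.299 and 1.09. In 8-cell embryo blastomere_619 it was absent from 4 of 5, the other having 0.107, and block 4 was absent from 3 of the 5. These 3 embryos held all 16 absences of block 13 among 89 IVF 8-cell blastomeres, and embryo blastomere_619 held all 3 of block 4.

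The same was seen at other cell numbers. In 6-cell embryo blastomere_522, block 13 was absent from all 6 blastomeres (0.0497 to 0.0935) and block 4 was at 0.810 to 1.37. These embryos differed in how many other blocks were absent. Embryo blastomere_522 lacked 1 or 2 of the 29 blocks in each blastomere, of which only block 13 in every one. Embryo blastomere_612 lacked 2 in each, block 13 and block 29. The blastomeres of embryo blastomere_619 lacked 10 to 18 blocks each. In 6-cell embryo blastomere_587 of prefix 15287, block 4 was absent from 3 of 5 blastomeres and at 0.112 and 0.118 in the others, with 2 to 13 blocks lacking per blastomere. In 4-cell embryo blastomere_530 blastomeres split, with block 4 at 0.0695, 0.0499, 2.07 and 1.82 and block 13 at 0.0386, 1.91, 0.0638 and 1.30 in blastomeres A to D.

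**Figure D4:**
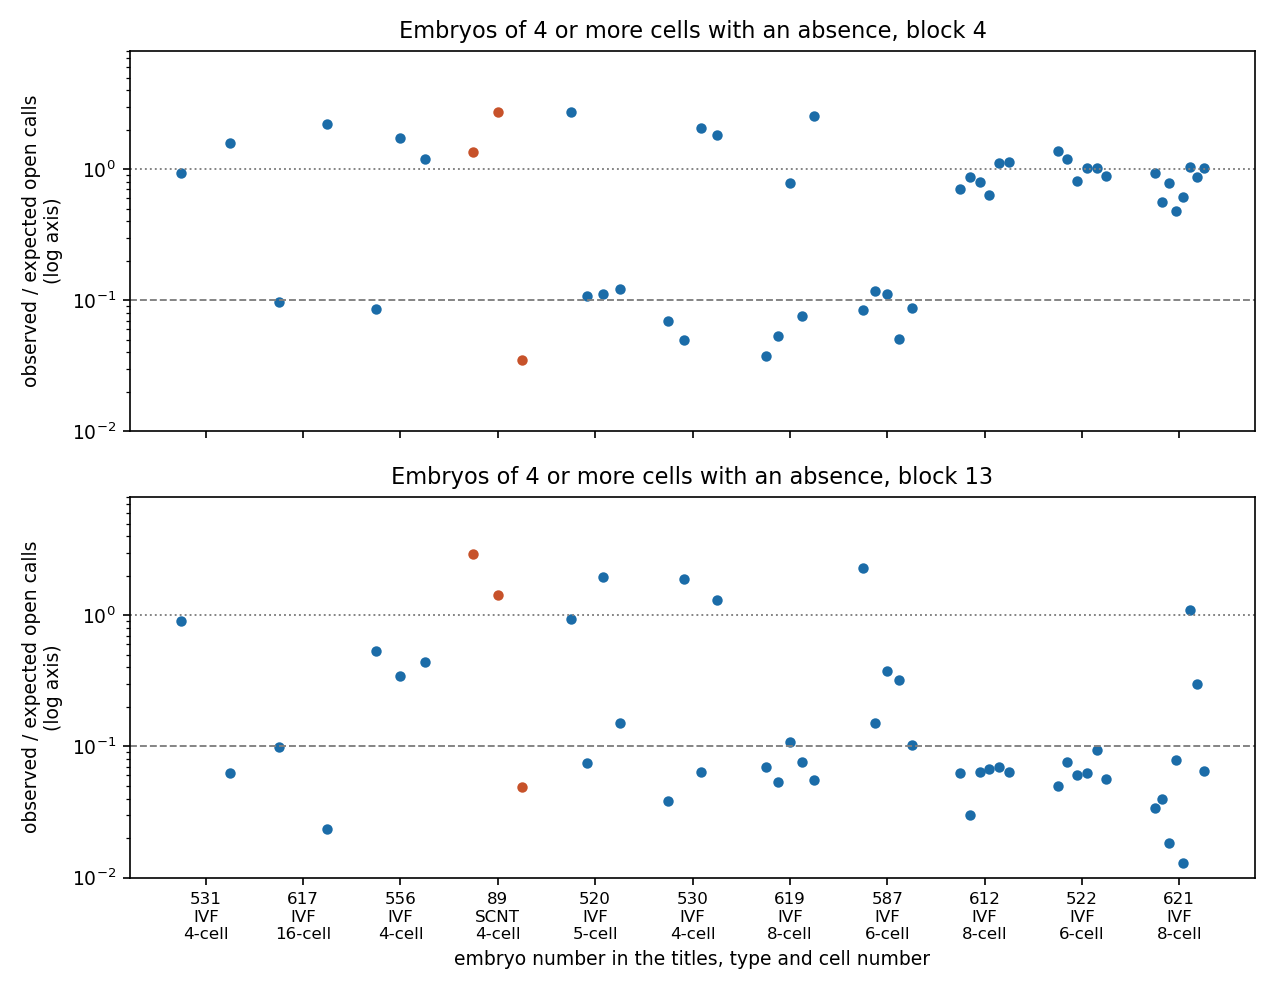
Relative coverage of every kept blastomere (points, log axis) in the 11 embryos of 4 or more cells with an absence of block 4 (upper panel) or block 13 (lower panel), with embryos on the x axis, IVF in blue and SCNT in orange, a dashed line at 0.1 and a dotted line at 1. Embryos blastomere_522 and blastomere_612 have all 6 points of block 13 below the dashed line while their block 4 points lie near 1.

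Among SCNT embryos, absence was found in 3 blastomeres. In a 4-cell embryo blastomere_89C lacked both blocks and 17 of the 29 in all, and its sisters blastomere_89A and blastomere_89B had 1.36 and 2.71 of the expected block 4 calls and 2.93 and 1.42 of those of block 13. The other two were 2-cell blastomeres whose sister was not kept, in embryo blastomere_75, which lacked block 4 and no other block, and in embryo blastomere_35, which lacked block 13 and 8 others.

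In a few blastomeres calls were scarce in some parts of a block and not in others. Each block was divided into eighths with equal numbers of members, and a profile was called partial in blastomeres with at least 8000 calls where an eighth had under 0.1 and another at least 1 times the expected calls. For block 4 this held in 4 IVF blastomeres (2.01% of those examined, exact 95% interval 0.550 to 5.07) and in no SCNT blastomere, and for block 13 in 2 and 1. All 4 of block 4 were from 2-cell embryos (3 embryos), where 59 IVF and 14 SCNT blastomeres were examined. The count of 0 in 130 SCNT blastomeres allows, at 3 counts of the total, a share of up to 2.31% (exact 95% upper limit 2.80%). The interval and limits again treat blastomeres as independent, which those of 1 embryo are not.

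In embryo blastomere_604 the sisters held opposite ends of block 4. Blastomere A had 3.96, 4.30 and 1.71 times the expected calls in the first 3 eighths and 0 to 0.138 in the other 5. Blastomere B had 0.0758, 0.103 and 0.466 in the first 3 and 1.03 to 1.54 in the others. Over the whole block they had 1.23 and 0.889. In embryo blastomere_599 blastomere B had 0.740 to 1.03 in the first 3 eighths and at most 0.0771 in the others, where its sister had 1.64 to 2.82. In embryo blastomere_557 blastomere A had 1.07 and 1.13 in the fifth and sixth eighths and at most 0.472 elsewhere, where its sister had 1.87 to 3.56. In embryos blastomere_604 and blastomere_599 the level changed around the third eighth, which covers V43245 to V44355.

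**Figure D5:**
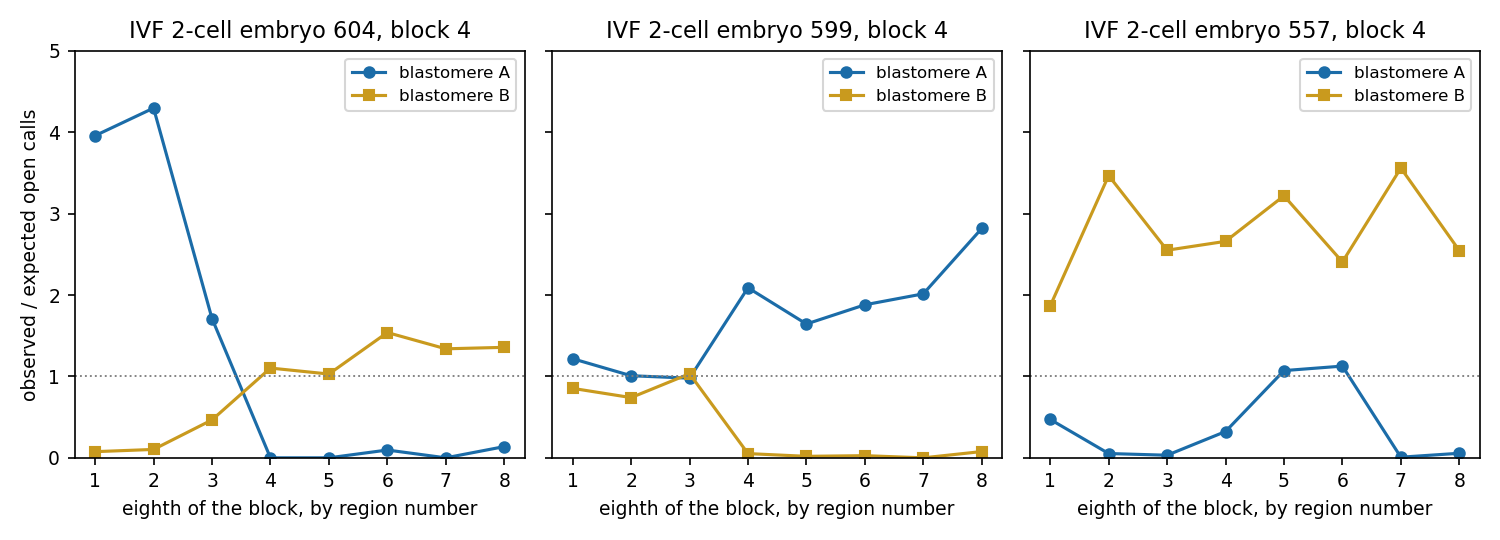
Observed over expected open calls (y axis, linear) in each eighth of block 4 by region number (x axis) in both sisters of IVF 2-cell embryos blastomere_604, blastomere_599 and blastomere_557; the dotted line is 1. In embryo blastomere_604 blastomere A falls from 4.30 in the second eighth to 0 in the fourth, while blastomere B rises from 0.0758 in the first eighth to 1.10 in the fourth.

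For block 13, IVF 5-cell blastomere_520D had 0.120 and 0 in the first 2 eighths and 1.49 to 3.19 in the others. IVF 2-cell blastomere_572B had 1.01 in the first eighth and 0.0897 to 0.650 in the rest. The SCNT case, 4-cell blastomere_108D, had 1.17 in the first eighth and 0.0693 in the fourth, with 0.304 to 0.978 between and after. Counting error is larger in an eighth than in a block, the smallest expected number being 22.5 calls for block 4 and 16.9 for block 13.

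Single members were tested over embryos with all other regions of the table. Of 91058 regions open in at least 10% of the embryos, 2210 were members of block 4 and 1482 of block 13, so 11737 rarer members were not tested. The test sets observed against expected calls per embryo in a limma-moderated score test whose p may not fall below an exact binomial p, with Benjamini-Hochberg adjustment over all 91058 regions and a threshold of 0.05. A member that is rare overall passed the filter only if enough embryos had a call, so counts over tested members do not stand for all members.

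At the 2-cell stage, 1 member was open more often in SCNT than in IVF embryos and none less often, against 0.0351% of all tested regions called in either direction. It was V47177 of block 4, with 11 calls in 11 of 40 SCNT embryos where 3.38 were expected and 3 calls in 3 of 66 IVF embryos where 14.1 were expected (limma-moderated test, adjusted p = 0.0225). At an unadjusted p under 0.05 there were 75 tested members of block 4 (3.39%) and 24 of block 13 (1.62%), against 3.49% of all tested regions. In block 13 none passed. The nearest, V126117, had 8 SCNT and 3 IVF calls (adjusted p = 0.332).

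At the 4-cell stage none of the members passed the limma-moderated test, against 0.0011% of all tested regions, and the score test alone also gave 0. At an unadjusted p under 0.05 there were 57 members of block 4 (2.58%) and 39 of block 13 (2.63%), against 4.04% of all tested regions. V47184 of block 4 came nearest, with 10 calls in 9 of 24 SCNT embryos and 0 in 21 IVF embryos (adjusted p = 0.172). In block 13, V126616 had 9 calls in 7 SCNT embryos and 0 in IVF (adjusted p = 0.229).

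At the 8-cell stage 22 members of block 4 were more often open in SCNT embryos and 15 in IVF embryos, and in block 13 these were 10 and 1. That is 48 of 3692 tested members, or 1.30%, where 1.78% of all tested regions were called, 1.03% higher and 0.751% lower in SCNT. V42492 of block 4 had 17 calls in 14 of 21 SCNT embryos and 0 in 14 IVF embryos (limma-moderated test, adjusted p = 0.00390). V46586 had 19 and 2 (adjusted p = 0.00845). V47177, the member called at 2 cells, had 23 calls in 14 SCNT and 6 in 4 IVF embryos (adjusted p = 0.0183), and the 2 comparisons share no embryos. In the other direction V44943 had 0 SCNT calls and 30 in 9 of 14 IVF embryos (adjusted p = 0.0108), V42779 had 3 and 35 (adjusted p = 0.0193), and V45470 had 5 and 40 (adjusted p = 0.0211).

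In block 13 the members higher in 8-cell SCNT embryos were led by V131158, with 21 calls in 12 of 21 SCNT and 5 in 4 of 14 IVF embryos (limma-moderated test, adjusted p = 0.0232). V128077 and V127054 each had 11 SCNT calls and 0 IVF calls (adjusted p = 0.0235 and 0.0240). The single member called in the other direction, V126740, had 0 and 23 (adjusted p = 0.0251).

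The count and the split of these 48 calls differed between settings. In 1 setting the 50 blastomeres of the compared groups (at least 2000 calls) that lacked block 4 or block 13 were left out. There 17 members passed (0.46%), of which 4 were higher in SCNT and 13 lower. In block 13 these were 0 and 2, so V131158, V128077 and V127054 were no longer called higher in SCNT. Calls over all tested regions fell to 0.66% in that setting, with 56.9% of them higher, and the median log2 ratio of the tested members with calls in both types was 0.27 with and without these blastomeres. With the depth taken from regions open in at least 25% of the columns, 45 members passed, of which 7 were higher and 38 lower. That scaling moved the median log2 ratio over all tested regions with calls in both types from 0.03 to -0.29 and that of the members from 0.27 to -0.08. Under it 2.31% of all tested regions were called, 16.9% of them higher, against 15.6% of the called members, so the direction of these calls depends on the scale chosen.

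Between the 8- and 2-cell stages of IVF, 5.29% of the tested members of block 4 were higher at 8 cells and 1.67% lower (37 members), and in block 13 these were 2.63% (39) and 3.31% (49). The background was 10.5% of all tested regions, 7.49% higher and 3.01% lower at 8 cells. V43079 of block 4, one of the members at the threshold of 98 calls, had 36 calls in 9 of 14 8-cell embryos and 2 in 66 2-cell embryos (limma-moderated test, adjusted p = 4.85e-05). V45470, which was lower in SCNT at 8 cells, had 40 calls in 12 and 4 in 4 embryos (adjusted p = 4.85e-05), and V43432 had 33 and 3 (adjusted p = 0.000107). Among members less often open at 8 cells, V47139 had 0 calls at 8 cells and 16 at 2 cells (adjusted p = 0.0112), V44962 had 0 and 15 (adjusted p = 0.0153), and V47851 had 1 and 17 (adjusted p = 0.0190).

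In block 13, V129061 had 26 calls in 7 of 14 8-cell IVF embryos and 2 in 66 2-cell embryos (limma-moderated test, adjusted p = 0.000327). V130365 had 26 and 3 (adjusted p = 0.000589) and V130882 had 28 and 4 (adjusted p = 0.000613). V129133 had 0 calls at 8 cells and 21 in 20 2-cell embryos (adjusted p = 0.00331), V127054 had 0 and 20 (adjusted p = 0.00400), and V131068 had 3 and 28 (adjusted p = 0.00491). The comparison shares its 8-cell IVF embryos with that of SCNT against IVF, so the values of V45470 and V127054 in both are not independent. Without the blastomeres lacking a block, 4.09% of the tested members passed in place of 6.55%, and 74.2% of these were higher, with 33 higher and 24 lower in block 13. Over all tested regions 6.19% passed in that setting in place of 10.5%, 78% of them higher. With depth from commonly open regions 302 members passed (8.18%), of which 53% were higher, against 12.1% of all tested regions, 66.4% of them higher. The 8-cell embryos all have prefix 15287, and 62 of the 65 2-cell embryos kept for the tests of shares have 15286, so stage and prefix cannot be told apart here.

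Within SCNT none of the members passed between 8 and 2 cells by the limma-moderated test, where 0% of all tested regions did, and the score test alone also gave 0. At an unadjusted p under 0.05 there were 38 members of block 4 (1.72%) and 31 of block 13 (2.09%), against 2.50% of all tested regions. V41735 of block 4 had 2 calls in 21 8-cell embryos and 9 calls in 40 2-cell embryos (unadjusted p = 0.00110 by the limma-moderated test). Whether the change from 2 to 8 cells of single members differs between the types was not tested.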

How the data were processed

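Single-blastomere ATAC-seq libraries of IVF and SCNT embryos were analysed from the authors' deposited table of open calls. The submitters' processing notes name bedtools, Bowtie2 2.2.6 and FastQC 0.10.1. No source used here gives the genome build or how a call of open was made. Every deposited value is 0 or 1, a call and not a count of reads, and per the file headers the regions carry only running numbers. Columns X1 to X1737 were tied to titles by runs of numbers with constant offsets, an inference stated nowhere in the sources used here. Labelled libraries without a column were not analysed here.

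Expected calls came from a model with 1 factor per blastomere and 1 per region, whose product is the mean of a Poisson variable and a region is open where that variable is above 0, fitted in 12 iterations. Embryos, the replicates, were compared by two-sided permutation tests of means with 100000 resamples (exact where a group held under 10 embryos), 30 in all with Benjamini-Hochberg adjustment over the 10 of each measure, plus 6 of the change with stage. The 5 region comparisons used limma 3.58.1 in R 4.3.3 with Python 3.11.15. Only the SCNT against IVF 8-cell comparison was tried on simulated calls. Coverage of stretches of regions varied there by embryo to the same degree in both types, and no block was made absent. What absent blocks do to the region calls was therefore not tested by the simulation. In the simulated 8-cell comparison most changes were missed, so a low count does not show a lack of change. Embryo numbers that recur with another cell number or prefix were taken as other embryos.

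The 29 blocks were found from bins of 100 regions whose calls no longer correlated across a boundary. The regions named are, in each comparison and block, the 3 with the smallest adjusted p in each direction or, where none passed, those with the smallest unadjusted p, as examples; the blastomeres named are the 5 highest and 5 lowest in each block and those of embryos with an absent or partial block. The members, groups and tests were chosen with earlier results of these data known. Alternatives were the minimum of calls, thinning to 2000 calls, all regions of a block, complete embryos, the absence threshold, title prefixes, the region filter, the depth scale and the exact bound.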

Additional observations from a re-analysis of the deposited data

Results flagged for a closer look

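Embryos whose cell number enters no comparison also lacked the blocks. Block 4 was absent from 5 of 74 IVF blastomeres (6.76%, exact 95% interval 2.23 to 15.1) in 3 of 18 embryos, and block 13 from 10 of 74 (13.5%, 6.68 to 23.5) in 4 embryos. In SCNT embryos of such cell numbers neither was absent from any blastomere of 20 embryos, which at 3 counts of the total allows a share of up to 2.63% (exact 95% upper limit 3.18%). The intervals and limits treat blastomeres as independent, which those of 1 embryo are not, so they are too narrow for a contrast of types. Embryo blastomere_522 alone held 6 of the 10 absences of block 13, and embryo blastomere_587 held 3 of the 5 of block 4. The difference between the types was not tested.

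Single embryos stood apart in groups of 6. Among IVF 6-cell embryos, embryo blastomere_522 lacked block 13 in 100% of its blastomeres and embryo blastomere_587 lacked block 4 in 60%, where the other embryos were at 0%. Among IVF 3-cell embryos, embryo blastomere_582 lacked block 13 and embryo blastomere_515 lacked block 4 in 50% of their blastomeres, again with 0% in the others. Embryo blastomere_587 also had the largest spread of block 13 between its blastomeres of the IVF 6-cell group, 2.05 where the next embryo had 0.481. Of 20 combinations of group, block and measure examined, 5 held such an embryo. A single embryo above others that are all at 0 always stands apart by this measure. All but the spread of embryo blastomere_587 were of this kind, and combinations without any difference between embryos were not examined. The count of 5 therefore cannot be set against a rate by chance.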

How the results depend on the processing

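Of the alternative values, 16 changed sign, 5 passed where the reported one did not, 6 counts of members called moved by over 1.5 times, and the rest did none of these. Counts of members called were judged by size and not by direction. With depth from commonly open regions, 45 members were called for SCNT against IVF at 8 cells, against 48 as reported. Their split went from 32 higher and 16 lower in SCNT to 7 and 38, a turn that these numbers leave out. Shares changed sign in 11 cases, none of which passed any test. For block 4 in SCNT against IVF 4-cell embryos, the difference was 0.00949 after thinning, 0.00117 with all regions and 0.0118 as relative coverage, against -0.0222 as reported. For block 4 in IVF 8-cell against 2-cell embryos it was -0.0101 with a minimum of 5000 calls, -0.197 in complete embryos and -0.271 without blastomeres lacking the block, against 0.0880. For block 4 in SCNT 8-cell against 2-cell embryos it was 0.268 in complete embryos. For block 13 it was 0.0937 in SCNT against IVF 2-cell embryos with the minimum of 5000, 0.0243 with all regions and 0.192 in complete embryos for SCNT 8-cell against 2-cell embryos, and 0.298 within prefix 15287 for IVF 8-cell against 2-cell embryos. Absence of block 4 in that IVF comparison was 4.29 percentage points within prefix 15287. The spread of IVF 8-cell against 2-cell embryos passed with the minimum of 5000 calls (-1.81 for block 4 and -1.66 for block 13, permutation test, adjusted p = 0.0388 for each) and with all regions of the block (-1.26 and -1.19, adjusted p = 0.0353 for each), where the alternatives' adjusted p ran up to 0.214 and 0.685. That of block 4 in SCNT 8-cell against 2-cell embryos passed with all regions (-0.335, permutation test, adjusted p = 0.0353). Spread of block 13 changed sign with the minimum of 5000 calls, to 0.290 at 4 cells, 0.0387 at 8 cells and 0.262 between the SCNT stages, and that of block 4 at 8 cells to 0.102 in complete embryos. The causes were not tested.

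Members called, as a percent of those tested, were reported as 0.0271% for SCNT against IVF at 2 cells (1 member), 1.30% at 8 cells and 6.55% for the IVF stages. With the filter at 25% of embryos, which tested far fewer members, they were 0%, 3.96% (4 members) and 7.92% (8 members, all lower at 8 cells), against 0.0861%, 8.40% and 26% of all regions tested at that filter, 74.9% of the last higher. The score test alone gave 0.190% at 2 cells (7 members, with 0.225% over all regions). Without blastomeres lacking either block, an alternative chosen after seeing the data, they were 0.460% for SCNT against IVF at 8 cells (17 members, with 0.66% over all regions) and 4.09% for the IVF stages (6.19% over all). Leaving out the SCNT 2-cell embryo of blastomere_85A was also chosen after seeing the data and changed no call of a share. No paired analysis was possible because replicate names are embryo numbers with letters, which do not pair embryos of different groups. Depth in reads is unknown. The DNA of a block counted as absent may have been closed, unrecovered or not in the cell. Which of these held was not tested, and open calls alone cannot tell them apart.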
